A study of Homo sapiens with 10 samples.

Results

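Gene expression of macrophages treated with punicalagin, myricetin or quercetin, which are plant polyphenols, was pooled and set against that of solvent-treated macrophages to describe what the 3 compounds had in common. Members were chosen by the treatment given in the sample labels, as 7 arrays of polyphenol-treated cells and 3 arrays of cells treated with DMSO, which together are all 10 arrays of the series. Punicalagin is an ellagitannin of pomegranate. Myricetin and quercetin are flavonols, and myricetin carries an additional hydroxyl group on its B ring.

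THP-1 cells, a line from a human monocytic leukaemia, become macrophage-like under the phorbol ester PMA. All cells received PMA for 24 h and then DMSO or a polyphenol for 24 h. DMSO and punicalagin were each applied to cells of passages 6, 7 and 8 (n = 3 arrays each), and myricetin and quercetin to cells of passages 7 and 8 (n = 2 arrays each). The methods give 10 µM for punicalagin, and the labels give no dose for the flavonols. Doses could therefore not be matched, so 0 pairs of compounds were compared with each other and their values are set side by side. Every compound was compared with the same 3 DMSO arrays, so the 3 comparisons share their controls. The arrays come from passages of 1 cell line, and the p-values measure the spread between these arrays, whose small number limits the precision.

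Macrophages take up modified lipoproteins through scavenger receptors that are not switched off by the cholesterol they deliver. Stored cholesteryl ester turns such cells into foam cells, and the nuclear receptors PPARγ and LXR control genes of fatty acid handling and of cholesterol export, while SREBP factors drive cholesterol synthesis when sterols are short. Flavonols are also known as ligands of the aryl hydrocarbon receptor, and polyphenols in general have been studied for effects on NF-κB signalling and on the antioxidant factor NRF2.

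Expression was read on Affymetrix Human Gene 1.0 ST arrays, and the deposited values are log2 intensities after RMA, in which 1 unit is a 2-fold difference. Array medians lay between 5.14 and 5.25. Markers were set against these medians by their mean over the 10 arrays. All 9 measured macrophage and monocyte markers, among them CD68, CSF1R, ITGAM and SPI1, lay above the array medians, as did 4 of 5 myeloid precursor markers. Of the markers of other cells 0 of 3 of T cells, 0 of 2 of B cells, 0 of 2 of endothelium, 2 of 4 of epithelium (KRT8 and KRT18, not EPCAM or CDH1) and 2 of 3 of fibroblasts (COL1A1 and PDGFRA, not COL3A1) did so. Not every array was above in each marker. CD163 had a mean of 5.31 over the 10 arrays but of 4.20 with DMSO, and PDGFRA 5.63 but 5.15. KRT8 had a mean of 5.30 and a lowest array of 4.84. PDGFRA and the endothelial VWF were higher with the polyphenols by 0.71 and 0.47 (limma adjusted p = 0.019 and 0.0226), and their part in other results was not tested. Each gene is represented by 1 transcript cluster, the brightest of those with that symbol alone, which gave 18417 genes. The DMSO array of passage 6 stood apart, with a mean correlation of 0.969 with the other arrays against 0.977 to 0.984 for the rest.

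The pooled contrast is the mean of the 3 compound means minus the DMSO mean, so that each compound counts equally. A change was called at a limma p under 0.05 after Benjamini-Hochberg adjustment over all 18417 genes, which is the adjusted p throughout. With all arrays in the fit, the calls shared by the polyphenols ran mostly upward, but this balance depended on the DMSO array that stood apart. In the pooled contrast 519 genes were higher (2.82% of genes tested) and 144 were lower (0.782%), while the median change of all genes was -0.03. Without the DMSO array of passage 6 the counts were 605 higher and 524 lower, so the calls were nearly balanced. Without DMSO of passage 7 they were 355 and 64, and without DMSO of passage 8 they were 434 and 100. Among the higher genes 164 rose at least 2-fold, and among the lower genes 10 fell at least 2-fold. Against DMSO alone, punicalagin gave 816 higher and 190 lower genes (4.43% and 1.03%), myricetin gave 101 and 23 (0.548% and 0.125%), and quercetin gave 599 and 230 (3.25% and 1.25%).

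The pooled call does not require that every compound changed a gene. Of the 519 higher genes, 67 also passed the test in each compound alone (0.364% of all genes), 204 passed it in 2 compounds, 242 in 1 compound and 6 in none. Punicalagin passed it in 416 of them, quercetin in 336 and myricetin in 99. The median change of the 519 genes was 0.99 with punicalagin, 0.58 with myricetin and 0.94 with quercetin, and myricetin gave the smallest of the 3 changes for 327 genes. Of the 144 lower genes, 8 passed in each compound (0.0434%), 34 in 2 compounds, 86 in 1 and 16 in none, and here the medians lay close together at -0.61, -0.57 and -0.68. These counts and medians describe genes that the pooled test selected.

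Differences within a passage were taken as a treated array minus the DMSO array of the same passage, which gave 7 differences for each gene. In 427 of the 519 higher genes all 7 were positive, as they were in 5.57% of all genes, and in 131 of the 144 lower genes all 7 were negative, as in 7.27% of all genes. All 7 treated arrays lay above all 3 DMSO arrays in 350 of the higher genes (1.9% of all genes, against 2.75% that were parted in this way whether or not called), and below them in 104 of the lower genes (0.565%, against 2.18%). The median within-passage difference of the higher genes was 0.96 in passage 6, where punicalagin is the single compound, 0.85 over the 3 compounds in passage 7 and 0.78 in passage 8. For the lower genes the medians were -0.62, -0.61 and -0.63.

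Each compound alone gave a change of at least 2-fold in 61 genes upward (0.331% of all genes) and in 4 downward (0.0217%). All of these genes were past the pooled threshold, had no overlap between treated and DMSO arrays, and had the same sign in all 7 within-passage differences.

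The largest shared rise was in FABP4, a fatty acid-binding protein of adipocytes and macrophages. Its log2 intensity was 5.22, 2.90 and 2.73 in the DMSO arrays of passages 6, 7 and 8. It was 8.78, 8.85 and 9.10 with punicalagin, 8.51 and 8.73 with myricetin, and 10.51 and 10.64 with quercetin. All treated arrays lay more than 3 units above the highest DMSO array, and the quercetin arrays were the highest. The pooled change was 5.75 ± 0.41 (SE; limma adjusted p = 1.16e-05). DMSO of passages 7 and 8 lay below the lower quartile of all clusters on those arrays (3.63 on both), so the size of the change depends on values at the floor of the array and no fold is given. The DMSO array of passage 6 was itself above the other DMSO arrays in this gene, and without it the pooled change was 6.56.

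CD36, which takes up oxidized LDL and fatty acids, was evenly raised. It measured 6.66, 5.54 and 6.29 with DMSO, 10.52, 10.61 and 10.32 with punicalagin, 9.60 and 9.63 with myricetin, and 10.09 and 10.20 with quercetin. The changes were 4.32, 3.45 and 3.99 for the 3 compounds in that order and 3.92 ± 0.19 pooled (limma adjusted p = 1.97e-06), or 15.1-fold. MSR1, the class A scavenger receptor, measured 7.88, 6.73 and 6.45 with DMSO and 10.23 to 11.16 with the polyphenols (median 10.69). Its pooled change was 3.63 ± 0.24 (limma adjusted p = 5.27e-06). Both receptors stood well apart from DMSO on every treated array, with the myricetin arrays among the lowest of the treated ones.

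**Figure D1:**
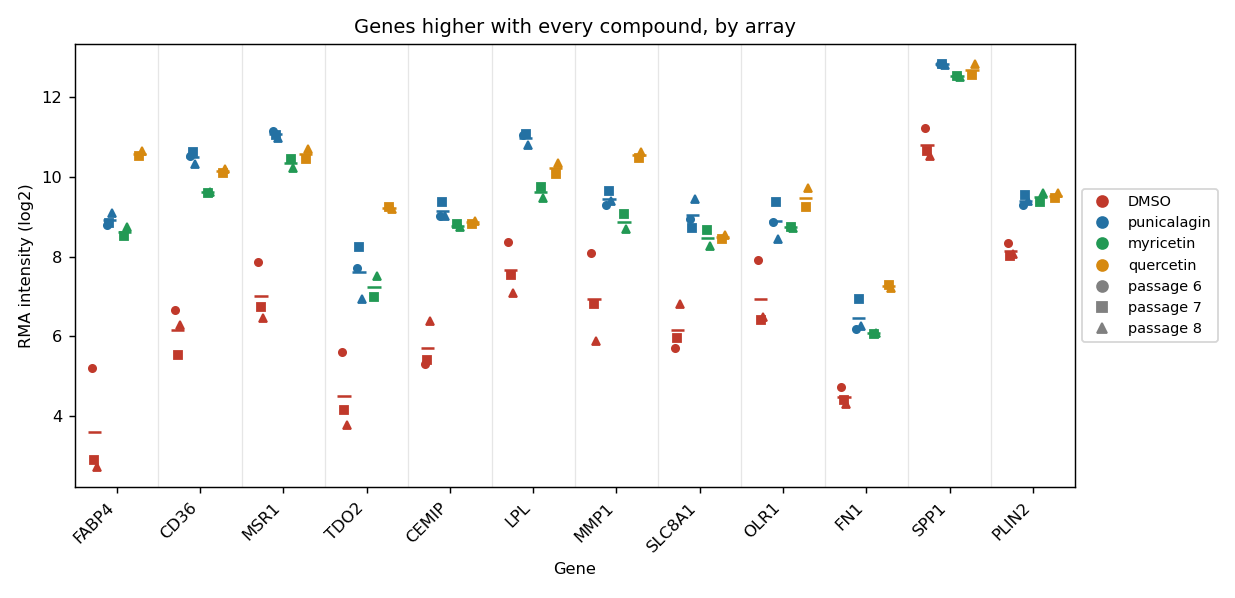
Log2 RMA intensity (vertical axis) of 12 genes (horizontal axis) on the 10 arrays, where colour gives the treatment, the symbol gives the passage and short lines are group means. In all 12 genes the treated arrays lie above the 3 DMSO arrays, by the widest gap in FABP4. The DMSO array of passage 6 is the highest of the DMSO arrays in all but CEMIP and SLC8A1, for example in FABP4 (5.22) and LPL (8.36). In CEMIP and SLC8A1 it is the lowest.

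Other genes of fatty acid storage rose with them. LPL, lipoprotein lipase, measured 8.36, 7.53 and 7.10 with DMSO and 9.47 to 11.06 with the polyphenols (median 10.35), a pooled change of 2.60 ± 0.21 (limma adjusted p = 3.47e-05). PLIN2, which coats lipid droplets, measured 8.34, 8.01 and 8.07 with DMSO and 9.28 to 9.60 with the polyphenols (median 9.46). The compounds gave PLIN2 nearly equal changes of 1.26, 1.35 and 1.38. PPARG, the nuclear receptor itself, measured 7.16, 6.81 and 6.90 with DMSO and 7.88 to 8.24 with the polyphenols, with a pooled change of 1.09 ± 0.11 (limma adjusted p = 0.000103). These 5 genes (FABP4, CD36, LPL, PLIN2 and PPARG) were the members called among 22 measured PPAR target and lipid droplet genes (22.7% against 2.82% of all genes), of which 0 fell by limma (2 at an unadjusted p under 0.05). The other 17 did not pass the test and the median of the list was 0.14, so the rise was that of a few members with large changes.

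Of 19 scavenger and lipoprotein receptors 10 rose and 0 fell by limma (0 also at an unadjusted p under 0.05, as in the LXR, cholesterol synthesis and SREBP lists that follow), which is 52.6% against 2.82% of all genes, and the list had the largest median of any, at 0.76 (1.15 with punicalagin, 0.17 with myricetin and 1.03 with quercetin). Beside CD36 and MSR1 they were OLR1, the lectin-like receptor for oxidized LDL, CD163, which takes up haemoglobin bound to haptoglobin, LRP1, a large endocytic receptor, the apoptotic cell receptors MERTK and AXL, and SCARB1, SCARB2 and CD68. OLR1 measured 7.92, 6.42 and 6.48 with DMSO and 8.43 to 9.71 with the polyphenols, with no overlap (pooled change 2.09 ± 0.30, limma adjusted p = 0.00167). LRP1 was tight within the groups at 6.08, 6.22 and 6.20 with DMSO, 8.37, 8.70 and 8.31 with punicalagin, 7.11 and 7.14 with myricetin, and 7.34 and 7.71 with quercetin. The punicalagin arrays were the highest in LRP1, whose pooled change was 1.53 ± 0.12 (limma adjusted p = 2.6e-05). CD163 changed by 1.89, 0.91 and 1.85 and did not overlap with DMSO, whereas SCARB2 and CD68 changed by 0.06 and 0.17 with myricetin. When single arrays were left out the count of receptors called ranged from 7 (without DMSO of passage 7, myricetin of passage 8 or quercetin of passage 8) to 12.

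Genes of cholesterol export that LXR controls rose in 4 of 11 cases (36.4% against 2.82% of all genes) and fell in 0 (list median 0.46). NR1H3, which encodes LXRα, measured 5.38, 5.43 and 5.67 with DMSO, 6.66, 6.57 and 6.72 with punicalagin, 6.57 and 6.68 with myricetin, and 8.44 and 8.48 with quercetin. All treated arrays were above DMSO and the quercetin arrays formed a level of their own, so that the changes were 1.16, 1.13 and 2.97 and the pooled change was 1.75 ± 0.10 (limma adjusted p = 4.51e-06). ABCG1, which exports cholesterol to high-density lipoprotein, measured 5.71, 6.70 and 6.69 with DMSO and 7.24 to 8.05 with the polyphenols (pooled change 1.31 ± 0.20, limma adjusted p = 0.00242). APOC1 rose without overlap, by 1.94, 0.73 and 2.08. APOE, an apolipoprotein of secreted lipid particles, rose by 1.20 in the pooled contrast but changed by only 0.26 with myricetin, its DMSO and treated arrays overlapped, and its limma adjusted p was 0.173 without quercetin in the contrast.

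Cholesterol synthesis rose in 6 of 17 measured genes (35.3% against 2.82% of all genes), fell in 0, and had a median change of 0.51. Its within-passage median was 0.98 in passage 6, where punicalagin is the single compound, 0.73 in passage 7 and only 0.18 in passage 8. The 6 were DHCR7, MSMO1, CYP51A1, EBP, SQLE and LBR, all of which encode enzymes of sterol synthesis. CYP51A1, the lanosterol demethylase, measured 8.00, 7.80 and 8.25 with DMSO, 9.90, 10.04 and 9.59 with punicalagin, 8.76 and 8.37 with myricetin, and 8.78 and 9.26 with quercetin. Its lowest treated array, of myricetin, was just above the highest DMSO array, and the pooled change was 1.12 ± 0.16 (limma adjusted p = 0.00135). The list was uneven, with medians of 0.82, 0.28 and 0.25 for punicalagin, myricetin and quercetin, and 10, 0 and 2 members passed in each compound alone. DHCR7 changed by 2.32, 0.87 and 0.51, and EBP by 1.76, 0.32 and 0.08. With punicalagin out of the contrast 2 of the 17 genes passed, and 2 passed also without DMSO of passage 7, myricetin of passage 7 or quercetin of passage 8.

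Other SREBP targets and regulators rose in 5 of 15 genes (33.3%) and fell in 0 (list median 0.34). The within-passage medians of this list were 0.87, 0.20 and 0.25 in passages 6, 7 and 8. The desaturases FADS2 (2.54, 1.46 and 0.96), SCD (1.92, 0.89 and 1.20) and FADS1 (1.08, 0.69 and 0.78), the sterol carrier STARD4 (0.96, 0.75 and 1.18) and SREBF2, the master factor of sterol synthesis (0.94, 0.37 and 0.36), were raised in the order of compounds used above. All but FADS2 had treated arrays wholly above DMSO. The count of calls fell to 2 without DMSO of passage 7 or quercetin of passage 8, and to 2 with punicalagin out of the contrast.

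For these SREBP-controlled lists the 250 bases upstream of their start sites were read from RefSeq promoters (GRCh38.p14) and searched on both strands for TCACNCCAC, the letters of a sterol response element. They occur in 0.883% of 35116 windows, in 0 of 20 windows of cholesterol synthesis genes, in 1 of 19 windows of other SREBP genes (5.26%) and in 1 of 22 windows of metallothionein and zinc transport genes (4.55%), so the share in the SREBP list is close to that in an unrelated list. The window among SREBP genes is SREBF2, chr22:41832855-41833104 on the plus strand, and it is shown with the matched letters in capitals beside CYP51A1, chr7:92134478-92134727 on the minus strand, which rose and holds no match. SREBF2 was chosen after its match was seen.
SREBF2: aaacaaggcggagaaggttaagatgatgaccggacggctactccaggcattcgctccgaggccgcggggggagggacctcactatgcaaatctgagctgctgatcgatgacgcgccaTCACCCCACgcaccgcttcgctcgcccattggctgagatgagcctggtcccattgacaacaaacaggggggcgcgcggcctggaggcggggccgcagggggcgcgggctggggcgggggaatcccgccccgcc
CYP51A1: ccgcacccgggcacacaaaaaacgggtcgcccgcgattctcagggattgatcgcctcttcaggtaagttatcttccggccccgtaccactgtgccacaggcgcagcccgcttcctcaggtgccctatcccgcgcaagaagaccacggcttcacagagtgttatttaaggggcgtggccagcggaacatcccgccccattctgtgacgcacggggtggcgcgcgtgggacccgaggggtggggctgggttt
The matched letters begin 133 bases before the start of SREBF2. A match is a description of the sequence only, and the absence of these letters applies to this window alone.

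Outside lipid handling, the genes with the largest shared rises had varied functions. TDO2, which degrades tryptophan, measured 5.62, 4.17 and 3.77 with DMSO and 6.93 to 9.23 with the polyphenols (median 7.71), and changed by 3.10, 2.73 and 4.69. CEMIP, which takes part in hyaluronan breakdown, was more even at 5.31, 5.41 and 6.39 with DMSO and 8.73 to 9.36 with the polyphenols, with changes of 3.43, 3.07 and 3.16 and a pooled change of 3.22 ± 0.20 (limma adjusted p = 4.51e-06). In both genes the treated and DMSO arrays were fully parted. SLC11A1, a metal transporter of the phagosome, measured 5.06, 4.92 and 4.91 with DMSO and 6.69 to 7.94 with the polyphenols (pooled change 2.43 ± 0.13, limma adjusted p = 2.16e-06). The sodium and calcium exchanger SLC8A1 rose by 2.50, the Ras activator RASGRP3 by 2.50, the microtubule-associated MTUS1 by 2.46 and DDIT4L, an inhibitor of mTOR signalling, by 2.42. MTUS1 was lowest with quercetin (changes of 2.79, 2.79 and 1.81) and RASGRP3 highest with it (2.39, 1.82 and 3.31).

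**Figure D2:**
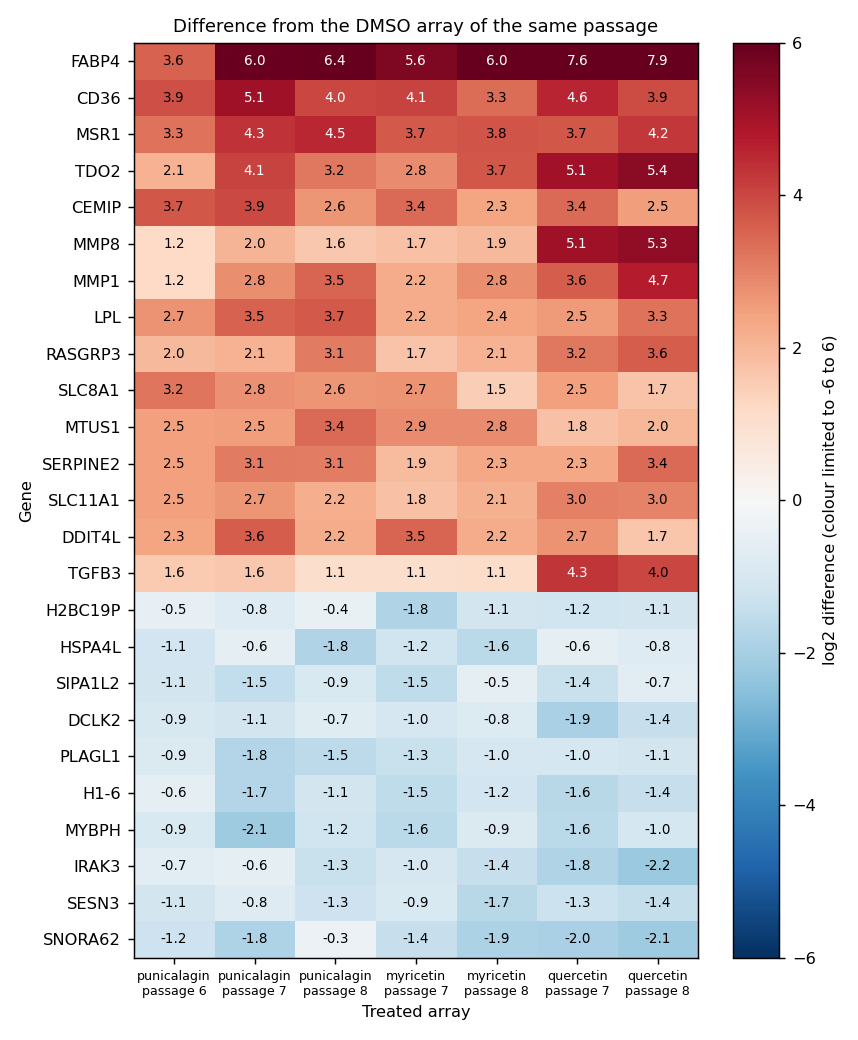
Difference in log2 intensity between each treated array and the DMSO array of its passage (columns) for the 15 genes with the largest shared rise and the 10 with the largest shared fall (vertical axis), with red for higher and blue for lower. All 25 genes were chosen to have 1 sign in all 7 columns. The rises span a far wider range than the falls, and MMP8 and TGFB3 are much higher in the quercetin columns than elsewhere.

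Falls were smaller. SNORA62, a small nucleolar RNA of the class that guides pseudouridylation, measured 11.93, 11.88 and 11.74 with DMSO, 10.71, 10.04 and 11.39 with punicalagin, 10.48 and 9.83 with myricetin, and 9.93 and 9.60 with quercetin. The punicalagin array of passage 8 lay close to DMSO and the other treated arrays well below it, and the pooled change was -1.64 ± 0.24 (limma adjusted p = 0.0019). SESN3, a sestrin that restrains growth signalling, measured 6.21, 6.02 and 6.17 with DMSO and 4.51 to 5.25 with the polyphenols (median 4.91), with changes of -1.04, -1.33 and -1.40. MYBPH, a myosin-binding protein, measured 7.66, 8.48 and 7.76 with DMSO and 6.33 to 6.88 with the polyphenols. SNORA62, SESN3, MYBPH and the linker histone H1-6 were the 4 genes lower by at least 2-fold in each compound, although in H1-6 the intensity was low, at 4.18 to 5.21 with DMSO and 2.97 to 3.67 with the polyphenols.

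Among the other large falls were IRAK3, an inhibitory kinase homologue of Toll-like receptor signalling, PLAGL1, a zinc finger transcription factor, and HSPA4L, a chaperone. IRAK3 measured 6.90, 7.20 and 7.78 with DMSO, 6.22, 6.62 and 6.44 with punicalagin, 6.19 and 6.38 with myricetin, and 5.39 and 5.56 with quercetin, without overlap and lowest with quercetin (pooled change -1.23 ± 0.17, limma adjusted p = 0.00131). PLAGL1 changed by -1.39, -0.93 and -0.83 and HSPA4L by -1.16, -1.27 and -0.55. DCLK2 and SIPA1L2 fell by 1.04 and 1.02, and the histone pseudogene H2BC19P fell by 0.97.

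Proteases that cut the extracellular matrix and their inhibitors were another group with many members called. Of 39 measured 17 rose (43.6% against 2.82% of all genes), 1 fell and 21 did not pass, with a median change of 0.45 (0.62, 0.18 and 0.41 for punicalagin, myricetin and quercetin). MMP1, the interstitial collagenase, measured 8.09, 6.82 and 5.89 with DMSO and 8.68 to 10.61 with the polyphenols (median 9.40), and its 3 DMSO arrays were spread over more than 2 units (pooled change 2.68 ± 0.33, limma adjusted p = 0.000682). The serine protease inhibitors SERPINE2 and SERPINI1 rose by 2.43 and 1.67 without overlap, and the metalloprotease inhibitors TIMP3 and TIMP2 by 1.28 and 0.57. The tissue factor gene F3 fell by 0.64. The count of higher members ranged from 11 (without DMSO of passage 7) to 20 with single arrays left out.

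The extracellular matrix list held 10 higher (25.6% against 2.82% of all genes) and 0 lower genes of 39 by limma (2 lower at an unadjusted p under 0.05). Fibronectin, FN1, measured 4.74, 4.40 and 4.31 with DMSO and 6.07 to 7.29 with the polyphenols (pooled change 2.12 ± 0.16, limma adjusted p = 1.99e-05). SPP1, the cytokine and matrix protein osteopontin, was bright throughout, at 11.23, 10.64 and 10.53 with DMSO and 12.50 to 12.82 with the polyphenols, and its changes of 2.01, 1.72 and 1.88 were close. The basement membrane collagens COL4A1 and COL4A2 rose by 1.63 and 1.41, COL6A1 by 1.38 and COL6A2 by 0.86, with no overlap in any of the 4. Its count depended little on single arrays, since 9 or 10 members passed whichever array was left out.

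Of 35 integrin and adhesion genes 9 rose (25.7% against 2.82% of all genes), 26 did not pass and 0 fell by limma, also at an unadjusted p under 0.05. The list median was 0.42 pooled and 0.05 with myricetin, which alone gave 1 call. ITGA3, an integrin subunit of laminin receptors, measured 5.68, 6.21 and 5.42 with DMSO and 6.98 to 7.89 with the polyphenols (pooled change 1.74 ± 0.15, limma adjusted p = 4.27e-05). ITGB5, which pairs with the αv subunit, changed by 1.24, 0.57 and 1.10 without overlap. ITGB3 passed the pooled test at 1.12, but its changes were 0.79, 0.05 and 2.51, its arrays overlapped, and its limma adjusted p was 0.606 without quercetin in the contrast. The list count ranged from 5 (without myricetin of passage 8 or quercetin of passage 8) to 13.

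Lysosomal genes rose in 10 of 50 cases (20.0% against 2.82% of all genes) and fell in 0 by limma (2 lower at an unadjusted p under 0.05; list median 0.36, and 0.73, 0.04 and 0.19 by compound). CTSC, a cathepsin that activates serine proteases, measured 8.78, 8.62 and 8.93 with DMSO and 10.01 to 10.97 with the polyphenols (pooled change 1.55 ± 0.12, limma adjusted p = 1.99e-05). LIPA, the acid lipase that hydrolyses the cholesteryl esters of ingested lipoproteins, measured 8.11, 7.62 and 7.59 with DMSO, 10.12, 10.20 and 9.36 with punicalagin, 8.52 and 8.28 with myricetin, and 8.84 and 9.17 with quercetin. Its lowest treated array, of myricetin, was just above the highest DMSO array. With punicalagin out of the contrast 4 lysosomal genes passed, with myricetin out 19 did, and there were 6 without DMSO of passage 8 and 17 without punicalagin of passage 8.

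Of 26 chaperones and stress genes of the endoplasmic reticulum 8 rose (30.8% against 2.82% of all genes) and 0 fell in the pooled limma contrast (0 lower also at an unadjusted p under 0.05), and the median was 0.47 pooled, 0.87 with punicalagin, 0.52 with quercetin and -0.02 with myricetin. HSPA5, the main chaperone of this compartment, measured 9.98, 9.73 and 9.65 with DMSO, 11.25, 11.35 and 10.86 with punicalagin, 9.90 and 9.63 with myricetin, and 10.05 and 10.57 with quercetin. The myricetin arrays thus lay at the level of DMSO and the punicalagin arrays above it. PDIA4, PDIA6 and HSP90B1 likewise changed by -0.07, -0.04 and 0.01 with myricetin and by 1.42, 1.19 and 0.93 with punicalagin, while ERN1, the stress sensor, was above DMSO on every treated array (0.85, 0.32 and 0.87). Alone, punicalagin gave 18 calls, myricetin 0 and quercetin 6. With punicalagin out of the contrast 1 gene of the list passed, 6 passed with quercetin out, 16 passed with myricetin out, and 1 passed without DMSO of passage 7, myricetin of passage 7 or quercetin of passage 8, against 13 without punicalagin of passage 8. The amino acid transporters SLC7A5 and SLC1A4 rose among 38 ATF4 target genes (5.26% against 2.82% of all genes, 0 lower, list median 0.40). This count of 2 ranged from 0 to 14 with single arrays left out.

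**Figure D3:**
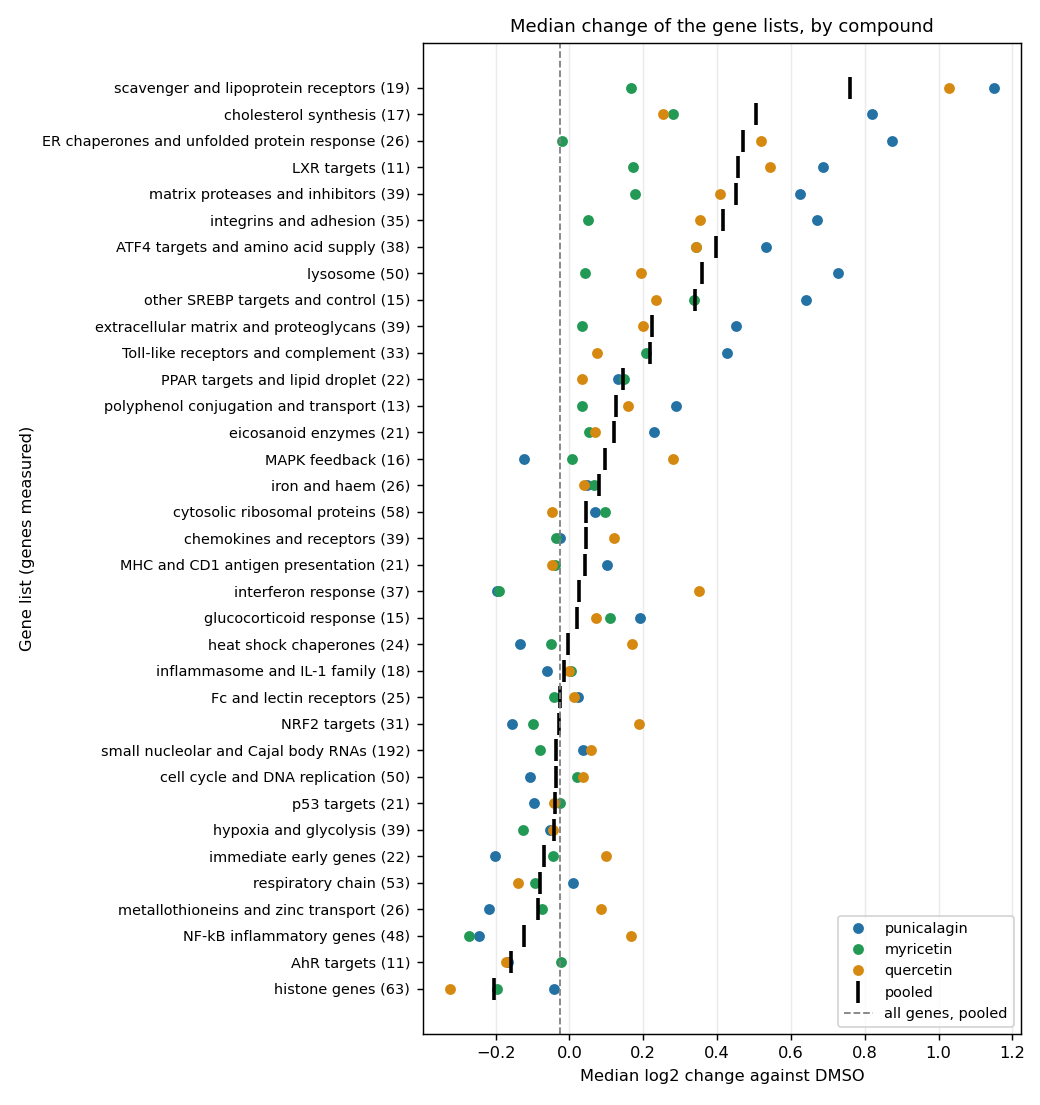
Median log2 change against DMSO (horizontal axis) of 35 gene lists (vertical axis, with the number of genes measured) for each compound and for the pooled contrast, with the median of all genes as a dashed line. Scavenger and lipoprotein receptors have the largest pooled median (0.76) and histone genes the smallest (-0.21), and in the endoplasmic reticulum chaperones the myricetin point (-0.02) is at the line of all genes.

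Genes of microbial sensing rose in 5 of 33 cases (15.2% against 2.82% of all genes) among Toll-like receptors and complement, with 0 lower by limma, also at an unadjusted p under 0.05. TLR4, the receptor for lipopolysaccharide, measured 7.04, 7.14 and 7.45 with DMSO and 7.78 to 8.47 with the polyphenols (median 8.12), a pooled change of 0.89 ± 0.12 (limma adjusted p = 0.00135). Its relative CD180 changed by 2.26, 1.62 and 0.90 and TLR1 by 1.17, 0.49 and 1.60, both without overlap. The complement receptor C5AR1 rose by 1.42 with overlapping arrays. The count ranged from 3 (without DMSO of passage 7) to 10.

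Receptors of the Fc and lectin list moved both ways, with 4 higher and 4 lower of 25 (16.0% each, against 2.82% and 0.782% of all genes). FCER2, the low-affinity IgE receptor, measured 7.81, 6.44 and 6.57 with DMSO and 8.41 to 10.13 with the polyphenols and rose by 1.97. FCGR2A and FCGR2B, Fc receptors for IgG whose near-identical sequences make their separate values uncertain, fell by 1.27 and 1.12, and their arrays overlapped. The 4 lower calls were not stable, since 0 passed without DMSO of passage 6, 1 without DMSO of passage 7 and 2 without DMSO of passage 8.

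Of 48 NF-κB genes 7 were lower and 2 higher (14.6% lower against 0.782% of all genes). The balance differed by compound, with 10 lower and 1 higher for punicalagin, 2 and 0 for myricetin, and 2 lower and 7 higher for quercetin. Several of the 7 encode parts or inhibitors of the pathway itself, namely NFKB1 and REL, which are subunits, NFKBIA and NFKBIZ, which are of the IκB family, BCL3, a nuclear cofactor of the same family, and TRAF1, an adaptor of TNF receptors. TRAF1 measured 8.22, 8.44 and 7.93 with DMSO, 6.79, 7.12 and 6.92 with punicalagin, 7.21 and 7.63 with myricetin, and 7.85 and 7.58 with quercetin, and one quercetin array lay only just below DMSO (pooled change -0.84 ± 0.14, limma adjusted p = 0.00589). SOD2, the mitochondrial superoxide dismutase, changed by -1.36, -0.91 and -0.11, so that it was near DMSO with quercetin. NFKBIZ was the most even, at -0.68, -0.70 and -0.78. The remaining 39 genes of the list did not pass, and the list median was -0.12, or -0.25, -0.27 and 0.17 by compound. The DMSO array of passage 6 exceeded the other DMSO arrays by a median of 0.50 in this list, and the within-passage medians were -0.54, -0.08 and 0.12 for passages 6, 7 and 8. The part of this array in the list median was not tested, and without it 7 genes were lower and 4 higher. With punicalagin out of the contrast 2 were lower, and without DMSO of passage 7 there were 4.

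In the inflammasome list NLRC4, a sensor of bacterial proteins, and AIM2, a sensor of DNA, rose by 0.98 and 0.87 (11.1%). IL1RAP, a subunit of the IL-1 receptor, fell by 0.91 (5.56%), with 15 of 18 genes not passing. The shares of this list and the next ones stand against 2.82% higher and 0.782% lower among all genes. Among chemokines and their receptors 2 of 39 rose (5.13%), GPR183, an oxysterol receptor, by 1.32 without overlap and CXCR4 by 0.95 with changes of 1.23, -0.23 and 1.86. Interferon response genes had 1 higher member of 37 (2.7%), ISG20, at 0.45. The medians of this list were -0.20, -0.19 and 0.35 with punicalagin, myricetin and quercetin. Alone, quercetin gave 8 higher and 2 lower genes of the list, and each of the other compounds gave 0. Antigen presentation genes had 0 of 21 in either direction by limma (4 higher and 2 lower at an unadjusted p under 0.05), where CD1D and CD86 had values of 0.40 and -0.62 (limma adjusted p = 0.15 and 0.128). Immediate early genes had 1 higher of 22 (4.55%), KLF4, at 0.68, and eicosanoid enzymes 2 of 21 (9.52%), PTGS1 and LTA4H, at 0.60 and 0.55. These single calls were weak, since KLF4, which changed by 0.17 with quercetin and whose arrays overlapped, passed in 10 of 22 alternatives, LTA4H in 8 of 22 and ISG20 in 9 of 22. With single arrays left out the immediate early count was 0 to 3, the eicosanoid count 1 to 3 and the interferon count 0 to 3. SPRED1, a brake on Ras signalling, was the single lower gene of 16 MAPK feedback genes (6.25%), at -0.88 without overlap.

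Classes of genes often read in studies of polyphenols had few calls each, though in several the share was above the 2.82% higher or 0.782% lower of all genes. Of 31 NRF2 targets, ABCC3 rose by 0.71 and ME1 fell by 0.66 (3.23% each), and 29 did not pass (list median -0.03). Of 11 aryl hydrocarbon receptor targets 1 rose (9.09%) and 2 fell (18.2%), but 0 fell with quercetin out of the contrast. The 2 were CYP1B1 and TIPARP, and TIPARP changed by -0.53, -0.18 and -1.72 with punicalagin, myricetin and quercetin. CYP1B1, a classical target of that receptor, measured 9.01, 8.77 and 8.47 with DMSO, 8.75, 8.99 and 8.55 with punicalagin, 8.29 and 8.39 with myricetin, and 6.27 and 6.33 with quercetin, so that its pooled fall of 0.95 was largely that of quercetin. Polyphenol conjugation and transport genes had 2 of 13 higher (15.4% against 2.82% of all genes), ABCC3 and the organic anion transporter SLCO4A1 (1.21, without overlap). Of 26 metallothionein and zinc transport genes 3 zinc importers rose, SLC39A1, SLC39A10 and SLC39A14, by 1.04, 0.84 and 0.73, and 0 fell by limma (5 at an unadjusted p under 0.05). This is 11.5% against 2.82% of all genes, but only SLC39A1 was above DMSO on every treated array. The count was 1 without DMSO of passage 7, punicalagin of passage 6, either myricetin array or quercetin of passage 8. The limma adjusted p of SLC39A10 was 0.594 without punicalagin in the contrast and that of SLC39A14 was 0.24 without quercetin. Punicalagin alone gave 5 higher and 4 lower members. Glucocorticoid response genes had 3 of 15 higher, CD163, SGK1 (0.71) and NR3C1 (0.44), the last being the receptor (20.0% against 2.82% of all genes). NR3C1 passed in 8 of 22 alternatives, and the count was 2 under 7 of the 10 omissions of a single array.

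Growth and housekeeping lists had few calls each, whose shares are set here against 2.82% higher and 0.782% lower among all genes. Respiratory chain genes had 0 of 53 in either direction by limma (0 higher and 3 lower at an unadjusted p under 0.05, median -0.08), where NDUFA2 and NDUFV1 had values of -0.63 and -0.43. Cytosolic ribosomal proteins had 1 higher of 58 (1.72%), RPL22, at 0.74, and cell cycle and replication genes had 1 lower of 50 (2.0%), CCND3, at -0.63. Hypoxia and glycolysis genes had 1 higher of 39 (2.56%), ADM, at 0.78. Among p53 targets GDF15, a stress cytokine, rose by 1.44 (1 of 21, 4.76%), with overlapping arrays. Heat shock chaperones had SERPINH1, a collagen chaperone, at 1.14 and HSPA4L at -0.99 among 24 genes (4.17% each way). Iron and haem genes had SLC11A1 and CD163 higher among 26 (7.69%). GAPDH, the reference transcript, measured 11.80, 11.39 and 11.44 with DMSO and 10.86 to 11.94 with the polyphenols, a pooled difference of 0.02 with a 95% interval of -0.41 to 0.45 (limma adjusted p = 0.984).

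Histone genes were the list with the lowest median, at -0.21, and 6 of 63 fell (9.52% against 0.782% of all genes) while 0 rose by limma (1 at an unadjusted p under 0.05). Beside H1-6 and H2BC19P they were H2BC5, H2BC4, H2AC6 and H2BC21. H2BC5 measured 5.38, 6.08 and 5.68 with DMSO and 4.47 to 5.28 with the polyphenols, and fell by 0.94 without overlap. Histone genes of this kind are near-identical copies, so that the separate values are uncertain, and the list was gathered by symbol and includes linker histones and a pseudogene. The list was uneven, with medians of -0.04, -0.20 and -0.32 for punicalagin, myricetin and quercetin, which alone gave 1, 2 and 9 lower genes. The pooled count was 3 without either myricetin array or without quercetin of passage 8, and 3 with quercetin out of the contrast. Among 192 small nucleolar and Cajal body RNAs 3 fell (1.56%), SNORA62, SCARNA10 (-0.86) and SNORA20 (-0.75). SNORD79 alone rose (0.54), which is 0.521% of the list against 2.82% of all genes.

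Several pooled calls rested largely on 1 compound. MMP10, a stromelysin, measured 5.44, 4.95 and 4.43 with DMSO, 5.10, 5.15 and 4.98 with punicalagin, 4.67 and 4.53 with myricetin, and 8.39 and 8.47 with quercetin. The punicalagin and myricetin arrays lay within the range of DMSO, and the changes were 0.14, -0.34 and 3.49. MMP3, a related protease, showed the same order at 0.27, -0.22 and 2.49, with a pooled change of 0.85 ± 0.21 (limma adjusted p = 0.048). Without quercetin in the contrast the limma adjusted p was 0.884 for MMP10 and 0.978 for MMP3.

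MMP8, TGFB3 and CD84 were also highest with quercetin, and in all 3 genes every treated array was above the DMSO arrays. MMP8, the neutrophil collagenase, measured 3.26, 2.75 and 2.47 with DMSO, 4.47, 4.78 and 4.08 with punicalagin, 4.50 and 4.41 with myricetin, and 7.83 and 7.79 with quercetin. Its DMSO values lay below the lower quartiles of those arrays (3.63 to 3.70), at the floor. Its punicalagin and myricetin values lay below the array medians (5.14 to 5.25). TGFB3, a growth factor of the TGF-β family, changed by 1.42, 1.08 and 4.15. CD84, a receptor of the SLAM family, measured 3.99 to 4.19 with DMSO, 4.69 and 4.95 with myricetin, which alone did not pass (limma adjusted p = 0.65), and 7.87 and 8.09 with quercetin. Its punicalagin arrays exceeded DMSO of the same passage by 2.45, 2.30 and 1.01 in passages 6, 7 and 8, so that it varied between passages as well as between compounds. Genes led by punicalagin were GPC4, a glypican (3.03, 1.42 and 0.60), and EBP. Since the flavonol doses are not given, no order of potency can be read from these values.

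**Figure D4:**
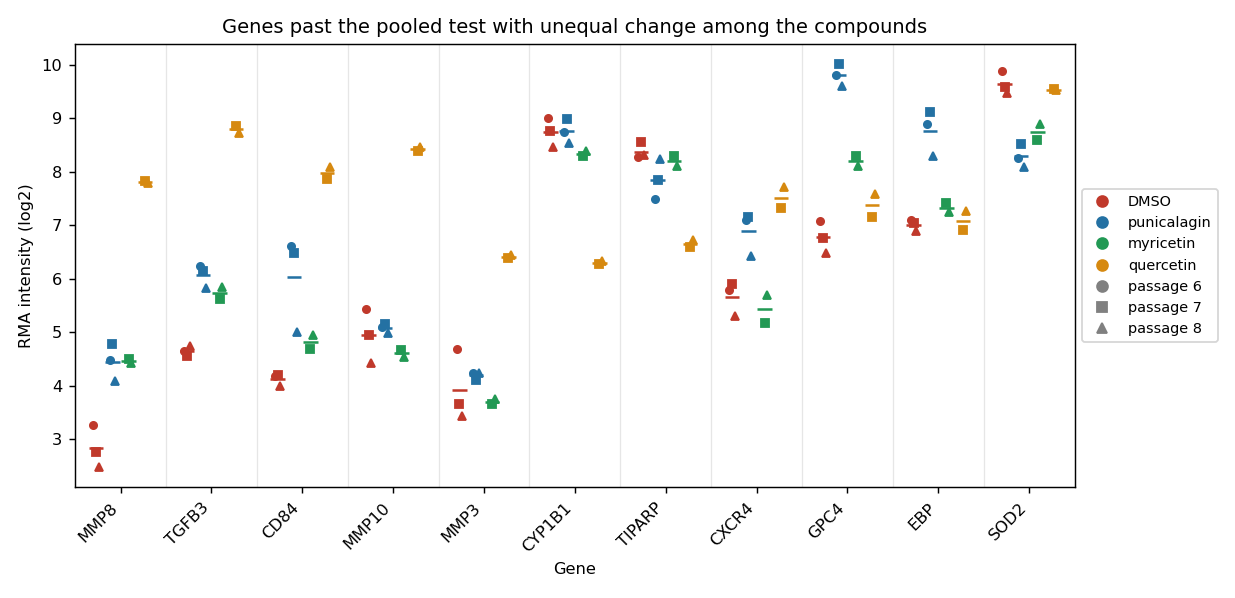
Log2 RMA intensity (vertical axis) on the 10 arrays of 11 genes (horizontal axis) that passed the pooled test with unequal changes among the compounds, with colour for treatment, symbol for passage and short lines for group means. Quercetin stands alone in MMP10, MMP3 and CYP1B1, punicalagin is the highest in GPC4 and EBP, and in SOD2 the quercetin arrays (9.54 on both) lie within the range of DMSO.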

How the data were processed

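The authors processed the scanned arrays with RMA (background correction, quantile normalization and probe summary). Partek 7.0 and Affymetrix Expression Console are the programs listed by the submitters. The deposited values are log2 intensities of 33297 transcript clusters. Whether all 10 arrays were normalized together, and the genome build of the probes, are not given in the sources used here. The platform annotation gives 1 symbol to 19460 clusters, several to 1754 and none to 12083. For each symbol the cluster with the highest mean was kept, with no filter on dim clusters.

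Means of the 4 groups were fitted on all 10 arrays in R 4.3.3 with limma 3.58.1 (lmFit, eBayes), adjusted by Benjamini-Hochberg over 18417 genes at a threshold of 0.05. Errors of changes are limma standard errors. Non-overlap and within-passage differences carry no test. The 35 gene lists come from general knowledge, and the members, lists and rules were chosen with earlier results of these data known. Named genes were the 15 largest rises and 10 largest falls among called genes without overlap and with 7 differences of 1 sign, up to 4 called members of each list (2 where none passed), 9 genes the study names, and up to 5 genes each with the largest smallest change or the widest range over compounds. Further called members of a list were named after their values were seen. Alternatives were a block for passage, passages 7 and 8 only, trend and robust estimation, array weights, removal of dim clusters, other sets of clusters, other weights of the compounds and leaving out each array. The alternatives for counts within gene lists were chosen after seeing the data. The fit was tested on simulated data.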

Additional observations from a re-analysis of the deposited data

How the results depend on the processing

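The counts of pooled calls depended on the arrays used, and so did the balance of higher and lower genes. Without DMSO of passage 6 there were 605 higher and 524 lower genes. With single arrays left out the 519 higher genes became 308 (without quercetin of passage 8) to 641 (without punicalagin of passage 8), and the 144 lower genes became 51 (without quercetin of passage 8) to 524 (without DMSO of passage 6). The punicalagin counts ranged from 479 to 935 higher and 59 to 525 lower, those of myricetin from 12 to 146 and 1 to 109, and those of quercetin from 219 to 833 and 33 to 681. Array weights gave 777 pooled higher genes, and 523 pooled, 439 punicalagin, 155 myricetin and 994 quercetin lower genes, with 272 higher for myricetin and 1264 for quercetin. Passages 7 and 8 alone gave 396 pooled, 87 myricetin and 655 quercetin lower genes, beside 515 pooled higher genes. With all clusters of the table tested there were 63 pooled, 81 punicalagin, 3 myricetin and 125 quercetin lower genes and 47 myricetin higher genes, and without dim clusters 14 myricetin lower genes. A minimum of 2-fold left 164 higher and 10 lower genes.

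Deviations from the group means had correlations of -0.14 to 0.30 over 13 pairs of arrays of the same passage, 2 of them above 0.1. Over 24 pairs of different passages they were -0.40 to 0.28, with 6 above 0.1. DMSO and punicalagin of the same passage gave 0.30, -0.11 and 0.28 in passages 6, 7 and 8. Deviations within a group cancel out, so those of 2 arrays mirror each other and the pairs are not independent. The correlations therefore cannot decide whether arrays of a passage deviated together. The passage as a replicate block gave 513 higher genes (462 shared) and 239 lower genes (125 shared), and 370 quercetin lower genes. The block with passages 7 and 8 only gave 267 pooled, 53 myricetin and 549 quercetin lower genes and 510 punicalagin higher genes.

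GAPDH, near 0, changed sign at -0.021 with equal weight per array, at -0.093 and -0.011 without myricetin or quercetin in the contrast, and ranged from -0.090 to 0.147 with single arrays left out. MMP10 changed sign at -0.099 without quercetin in the contrast. The cause of these shifts was not tested.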

Other observations

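Among the 61 genes that were at least 2-fold higher in each compound, 36 were not among the genes named by rule, and 35 of these are in none of the gene lists (SDC2 is in the extracellular matrix list). They are described here after their values were seen, with changes in the order punicalagin, myricetin and quercetin. Ion channel and calcium genes were among them. KCNIP2, KCNE1 and KCNMB1, which encode accessory subunits of potassium channels, had changes of 1.53, 1.93 and 1.55, of 1.55, 1.23 and 2.07, and of 1.18, 1.22 and 1.22. RCAN1, an inhibitor of calcineurin, changed by 1.28, 1.39 and 1.91. Receptors and signalling proteins included MET, the receptor of hepatocyte growth factor (2.39, 1.02 and 2.73), the cannabinoid receptor CNR1 (1.71, 1.10 and 2.20), CD22, a lectin best known from B cells (1.85, 1.39 and 2.14), and RGS13, a brake on G protein signalling (1.79, 1.73 and 2.73). CYP19A1, the aromatase that makes oestrogens, changed by 1.88, 1.20 and 2.84, and IGFBP3, which binds insulin-like growth factors, by 1.69, 1.28 and 2.66.

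At the cell surface and beneath it, the heparan sulphate proteoglycan SDC2 (1.96, 1.16 and 1.28), the caveolar protein CAV1 (1.34, 1.19 and 1.58), the formin FMNL2 (1.22, 1.49 and 1.34), the actin-severing SCIN (1.71, 1.18 and 1.32) and KANK1 (1.15, 1.01 and 1.62) were higher. The most even rises of the 36 were in KCNMB1, RGMB (1.19, 1.04 and 1.09), DCAF16 (1.34, 1.27 and 1.36) and TMEM184C (1.62, 1.52 and 1.48). RGMB is a coreceptor of bone morphogenetic proteins. In all 36 genes the lowest of the 7 treated arrays was above the highest DMSO array, on the same arrays that chose the genes. In SDC2, for example, treated arrays lay between 9.54 and 10.57 and DMSO arrays between 8.33 and 8.52.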
